A study of Mus musculus with 18 samples.

Results

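The genes described here are mesothelin (Msln), 4 simple epithelial keratins (Krt7, Krt8, Krt18 and Krt19), uroplakin 3b (Upk3b), Wt1 and Psca. All 8 were found by their symbols among the 20325 genes of each expression table. They were chosen by measured values: the rise of Msln after siRNA against the H3K36 methyltransferases is the value on record, and which values chose the other 7 is not given in the sources used here. For that reason the siRNA comparison is given below as a description with no test.

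The libraries are bulk RNA-seq of C3H10T1/2, a mouse embryo mesenchymal line, and 18 were deposited. H3.3WT (n = 2), H3.3K36M (n = 2) and H3.1K36M (n = 2) cells each stably carried a FLAG-HA-tagged histone, the K36M forms having methionine in place of lysine 36, so the H3.3WT control carried a tagged histone too. Control siRNA cells (n = 3) were the parental line given scramble siRNA, and HMT siRNA cells (n = 3) were the parental line given siRNAs to Nsd1, Nsd2 (Whsc1 in the tables) and Setd2. H3.3K36M tumors (n = 6) grew for 5 to 6 weeks under the skin of athymic female SCID mice, aged 6 to 8 weeks at injection, from 2000000 H3.3K36M cells in Matrigel per injection. Cultured cells were at passage 10 to 15. Both flanks were injected, so tumors may share a mouse, and the labels do not say which do. The labels name no clones or separate cultures, so a p-value here reflects how far libraries of 1 group differ, and that difference may be purely technical.

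Mesothelin is a cell surface protein held by a lipid anchor, made by the mesothelium that lines the body cavities and by several carcinomas. Keratins form filaments only as pairs of a type II with a type I chain: Krt7 and Krt8 are type II, Krt18 and Krt19 are type I, and together they are the keratins of single-layered epithelia and of mesothelium. Upk3b is a membrane protein of mesothelium and urothelium, Wt1 a transcription factor of mesothelium and kidney, and Psca a lipid-anchored surface protein of the Ly6 family found in several epithelia. Lysine 36 of histone H3 is methylated by enzymes that include Nsd1, Nsd2 and Setd2, and the K36M histone is known as an inhibitor of such enzymes.

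The promoters of 4 of the 8 genes were matched in RefSeq (GRCm38.p6): Krt7 and Upk3b, because their levels moved most among the matched genes, and Krt8 and Krt18, because they are neighbours whose levels differed. The other 4 are Msln, Krt19, Wt1 and Psca. The 250 bases before each start are printed 5′ to 3′ on the strand of the gene. Krt7 lies at chr15:101412153-101412402 (+), Krt8 at chr15:102004343-102004592 (-), Krt18 at chr15:102027966-102028215 (+) and Upk3b at chr5:136038246-136038495 (+). Capitals mark every match, on either strand, to any of 5 motifs. The first was the core promoter element TATAAA. The second was its shifted form ATAAAA, which can overlap it. The others were the GC box GGGCGG, the binding motif of AP-1 spelled TGANTCA, and the motif of the TEAD factors spelled GGAATG.
Krt7: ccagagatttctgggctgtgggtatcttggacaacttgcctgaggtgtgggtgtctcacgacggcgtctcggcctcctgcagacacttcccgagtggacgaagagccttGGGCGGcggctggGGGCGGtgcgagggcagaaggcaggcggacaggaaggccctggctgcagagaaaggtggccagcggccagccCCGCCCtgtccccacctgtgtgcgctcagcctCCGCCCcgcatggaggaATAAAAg
Krt8: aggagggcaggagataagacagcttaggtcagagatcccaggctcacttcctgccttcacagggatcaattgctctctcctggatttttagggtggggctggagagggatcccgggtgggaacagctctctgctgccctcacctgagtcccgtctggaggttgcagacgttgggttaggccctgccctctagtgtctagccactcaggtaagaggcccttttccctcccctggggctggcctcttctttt
Krt18: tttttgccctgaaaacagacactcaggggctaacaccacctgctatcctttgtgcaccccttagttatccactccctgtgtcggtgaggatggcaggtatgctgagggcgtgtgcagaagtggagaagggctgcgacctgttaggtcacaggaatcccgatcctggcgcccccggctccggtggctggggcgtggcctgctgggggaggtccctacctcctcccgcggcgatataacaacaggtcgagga
Upk3b: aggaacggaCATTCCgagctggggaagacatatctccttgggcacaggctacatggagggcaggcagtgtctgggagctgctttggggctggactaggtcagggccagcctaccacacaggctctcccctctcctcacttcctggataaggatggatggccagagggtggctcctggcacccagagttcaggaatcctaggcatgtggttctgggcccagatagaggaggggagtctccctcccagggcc

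The Krt7 window held 4 GC boxes, whose first bases lie 141, 128, 56 and 24 bases before the start, and 1 shifted TATA element 7 bases before it. The Upk3b window held 1 TEAD match, 241 bases before the start. The Krt8 and Krt18 windows held no match to these 5 motifs. Over all 32851 promoter windows of the same length, the GC box was present in 32.7%, the shifted TATA element in 17%, the TEAD site in 12.6%, the TATA element in 12.4% and the AP-1 site in 6.75%. A match is a stretch of letters and not a measured site.

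Levels are the authors' median-normalised estimated counts, not corrected for gene length, so a level is compared between libraries of 1 table and never between genes. Library depths were 13993307 to 56041798 estimated reads, at which 1 estimated read is worth a level of 0.438 to 1.73. The siRNA targets were lower in all 3 HMT siRNA than in all 3 control siRNA libraries, with Setd2 at 1063 to 1224 against 3114 to 3401, Whsc1 at 1019 to 1121 against 1565 to 1607 and Nsd1 at 3189 to 3422 against 4392 to 5007. All 6 mesenchymal markers (Col1a1, Col1a2, Col3a1, Pdgfrb, Thy1 and Prrx1) were detected in every group. In cultured libraries their summed level was 443915 to 746931 in the H3.3 and siRNA table and 585951 to 774380 in the other table. Among 5 simple epithelium markers other than the genes described, Epcam was at 0 in every cultured group, and the sum was 569 to 619 in H3.3K36M, 139 to 146 in H3.3WT, 70.8 to 88 in HMT siRNA and 71 to 72.8 in control siRNA cells. Nearly all of that sum was Cdh1, at 556 and 603 in H3.3K36M, 145 and 137 in H3.3WT, 69.7 to 86.5 in HMT siRNA and 70.3 to 72.8 in control siRNA libraries. Tumor 6 stood apart from the other 5, with a mean chi-square per gene of 98.1 to 218 against each of them and of 22.1 to 71.1 among the others; tumor results that rest on it are given with and without it.

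**Figure D1:**
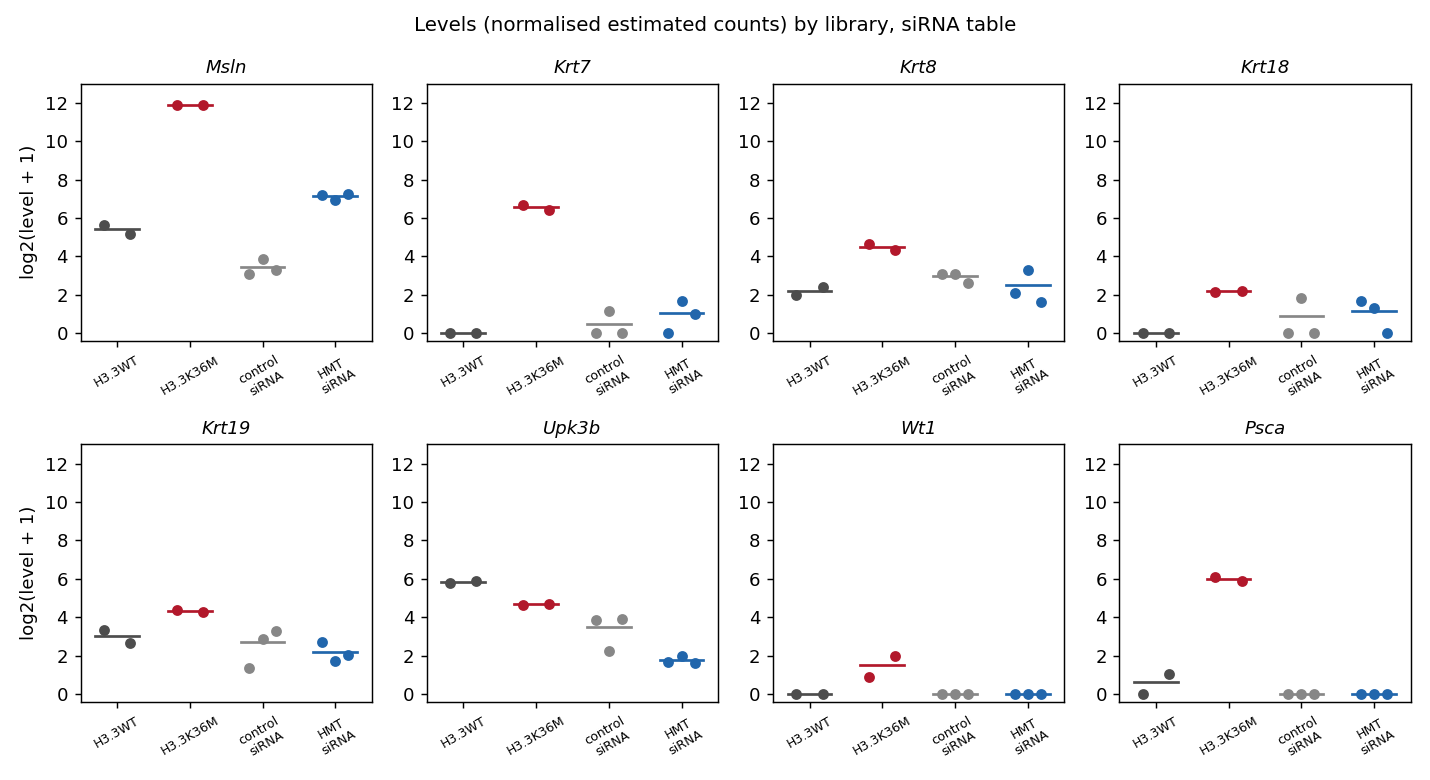
Each point is 1 library of the H3.3 and siRNA table, the y axis is log2(level + 1) of the normalised estimated count, and each bar is the group mean on the same scale. Msln separates all 4 groups, with H3.3K36M cells at 3766 and 3773, and Krt7 and Psca are at 59 or above in the H3.3K36M libraries and at 2.24 or below in the other 8.

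Mutant H3.3 was first compared with tagged wild-type H3.3, in cells that both carry a transgene. Each histone is represented by 1 line, so the K36M change and the line cannot be told apart. Msln, Krt7, Krt8, Krt19 and Psca rose in H3.3K36M cells, Upk3b fell, and Krt18 and Wt1 were under the filter of a level of 10 in 2 libraries. A gene was called when its adjusted p (limma on log2(level + 1), Benjamini-Hochberg over all genes tested) was under 0.05 and its change at least 2-fold. Of 13186 genes tested, 12.2% were called higher and 8.17% lower. The 6 genes that passed the filter were all called, 5 higher and 1 lower, but 4 of the 5 higher ones (Krt7, Krt8, Krt19 and Psca) passed it only through the H3.3K36M libraries, so that count is no measure of the set.

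Msln, the mesothelial surface antigen, was at 49.6 and 35.2 in the H3.3WT libraries and at 3766 and 3773 in the H3.3K36M libraries. Both mutant libraries lay far above both controls. The means were 42.4 ± 10.2 (SD, n = 2) and 3769 ± 5.19 (SD, n = 2), a log2 fold change of 6.46 ± 0.21 (SE), with an adjusted p of 4.95e-15 (limma).

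Krt7, the type II keratin of ductal epithelia and mesothelium, was at 0 in both H3.3WT libraries and at 103 and 85.7 in the H3.3K36M libraries. It went from not detected to detected in both mutant libraries, at least 29.6-fold higher than the level of 3 estimated reads per library that a count of 0 allows. On the log2(level + 1) scale, where the size depends on the added 1, the difference was 6.57 ± 0.69 with an adjusted p of 1.02e-07 (limma).

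Krt8, the other type II chain, was at 2.98 and 4.27 in H3.3WT and at 24.1 and 19.4 in H3.3K36M libraries. These are 7 and 82 estimated reads, a ratio per depth of 6.2 with an exact 95% interval of 2.88 to 15.9 that covers counting error only. The log2 fold change was 2.31 ± 0.52 (adjusted p = 0.00067, limma). A processed copy, Krt8-ps, is annotated in mouse, and reads it shares with Krt8 cannot be told apart here.

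The type I partners of these chains are Krt18 and Krt19. Krt18 was at 0 in both H3.3WT libraries and at 3.51 and 3.6 in the H3.3K36M libraries, which is 13 estimated reads and at least 1.11-fold above the limit a count of 0 allows. Krt19 was at 8.94 and 5.33 in H3.3WT and at 19.7 and 18 in H3.3K36M libraries. The groups did not overlap for Krt19, and its log2 fold change of 1.32 ± 0.58 reached an adjusted p of 0.0498 (limma), but this call was lost without any 1 of the 4 libraries (adjusted p 0.0605 to 0.244) and under quantile normalisation (0.52, adjusted p = 0.387). The Krt19 call thus needs all 4 libraries.

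Psca, the Ly6-family surface protein, was at 0 and 1.07 in H3.3WT and at 66.2 and 59 in H3.3K36M libraries. The count in the controls was 1 estimated read against 233, a ratio per depth of 123 (exact 95% interval 21.9 to 4895, counting error only). The log2 fold change was 5.46 ± 0.68, adjusted p = 9.19e-07 (limma).

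Upk3b was the 1 gene of the set that went the other way, with 53.6 and 58.9 in H3.3WT and 23.7 and 25.2 in H3.3K36M libraries. The groups did not overlap, and the log2 fold change was -1.17 ± 0.47 (adjusted p = 0.0322, limma). This call was lost without any 1 of the 4 libraries (adjusted p 0.0905 to 0.132), while the direction stayed. Wt1 was at 0 in both H3.3WT libraries and at 0.877 and 2.88 in the H3.3K36M libraries, 6 estimated reads in all. Both groups lie at or under the level of 3 reads, and reads of its antisense gene Wt1os cannot be told from its own without a stated strand. Msln thus differed widely between the lines, whereas Wt1 was at no more than 4 estimated reads in any of the 4 libraries.

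The genes around them were counted from lists of textbook members, chosen with earlier results of these data known. Of 15 other mesothelial genes in the table, 8 were tested, 4 rose and 1 fell, with a median log2 fold change of 0.93 against 0.02 over all genes tested. The count and median are shaped by the filter on low values, since 3 of the 4 that rose (Bnc1, Rspo1 and Mslnl) passed it only through the H3.3K36M libraries, so neither describes the list as a whole. The Bnc1 transcription factor of mesothelium and germ cells was at 0 in both H3.3WT libraries and at 22.9 ± 8.25 (SD, n = 2) in H3.3K36M (adjusted p = 4.43e-05, limma). The Wnt agonist Rspo1 went from 7.84 to 121 (log2 3.82, adjusted p = 6.65e-06, limma) and Mslnl, a mesothelin-like gene, from 0.533 to 16.1 (3.57, adjusted p = 0.000384, limma). The fourth that rose was Gata6, from 88.1 to 224 (1.34, adjusted p = 2.7e-08, limma). Podxl was the 1 that fell, from 171 to 24.2 (-2.77, adjusted p = 4.1e-07, limma). Summed over 5 mesothelial markers that are not described here as members, levels were 42.5 to 53.2 in H3.3K36M, 16.9 to 22.4 in H3.3WT, 3.04 to 3.76 in control siRNA and 0 to 2.21 in HMT siRNA libraries. Bnc1 and Gpm6a were at 0 in the H3.3WT group.

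Of 29 epithelial junction and identity genes, 10 were tested, 6 rose and 1 fell, and the median was 2.53, or 2 with Esrp1, at 0 in H3.3WT, set to its bound. Here too 4 of the 6 that rose (Ocln, Dsp, Pkp3 and Esrp1) passed the filter only through the H3.3K36M libraries, and the other two were Cdh1 and Pkp2. Cdh1, E-cadherin, went from 141 to 579 (log2 2.03, adjusted p = 9.5e-11, limma). Pkp2, a desmosomal plakophilin, went from 4.58 to 80.2 (log2 3.9, adjusted p = 4.28e-11, limma). Esrp1, an epithelial splicing factor, was at 0 in H3.3WT and at 12.6 ± 3.55 (SD, n = 2) in H3.3K36M cells. The epithelial transcription factor Ehf fell from 389 to 2.35 (log2 -6.88, adjusted p = 2.84e-14, limma). Pkp2 and Cdh1 thus rose while Ehf fell.

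Of 8 other keratins in the table, 2 were tested, 1 rose and 1 fell. Krt80, a type II keratin that lies next to Krt7, rose from 106 to 623 (log2 2.56, adjusted p = 3.1e-12, limma). Krt16, a type I keratin of wounded skin, fell from 32.7 to 1.66 (-3.71, adjusted p = 8.94e-05, limma), but it passed the filter only through the H3.3WT libraries. Of 17 keratinocyte genes in the table, 8 were tested, 2 rose and 4 fell, and under quantile normalisation 1 rose and 4 fell. Those that fell included Trp63 (log2 -3.62), the transcription factor of stratified epithelium, and Krt14 (-2.83), a basal keratin. The larger rise was that of Col17a1 (2.24, adjusted p = 6.23e-06, limma). Of 20 genes of the Ly6 family other than Psca, 12 were tested, 3 rose and 2 fell, with Lypd1 at -4.43, Lypd2 at 2.03 and Ly6f at 1.87. Lypd2 passed the filter only through the H3.3K36M libraries. Of 11 plakins and other intermediate filaments tested, 1 rose and 3 fell, with a median of 0.02; the neural filament gene Nes rose by 1.41, and Gfap and Synm changed by -1.59 and -1.45. The rise of Msln, Krt7, Krt8 and Psca therefore stood beside higher Pkp2 and Cdh1 and beside lower Trp63, Krt14 and Ehf. The keratinocyte list itself went both ways, with Col17a1 higher.

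The second comparison, HMT siRNA against control siRNA in the parental line, asks what depletion of the methyltransferases does. Msln was at 7.59, 13.8 and 8.65 in control siRNA and at 144, 122 and 150 in HMT siRNA libraries. All 3 HMT siRNA libraries lay above all 3 controls. The means were 10 ± 3.32 and 139 ± 14.4 (SD, n = 3 each), and 439 against 21 estimated reads gave a ratio per depth of 13.2 (exact 95% interval 8.55 to 21.6, counting error only).

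Upk3b was at 13.7, 3.76 and 13.8 in control siRNA and at 2.21, 2.98 and 2.06 in HMT siRNA libraries. The groups did not overlap, but the control libraries differed widely, and the log2 fold change was -1.57 ± 0.39 (SE). Its 20 and 8 estimated reads give a ratio per depth, control over HMT siRNA, of 3.95 with an exact 95% interval of 1.67 to 10.4. Of 12634 genes compared, 4.99% were at least 2-fold higher and 4.9% at least 2-fold lower, and of the 8 genes Msln was at least 2-fold higher and Upk3b at least 2-fold lower. Nothing is read from that count, since the contrast was used to choose Msln.

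The remaining 6 genes were under the filter in this fit, which also held the H3.3WT and H3.3K36M libraries. Upk3b passed it only with those libraries, and was under the filter in the 6 siRNA libraries alone. Krt7 was at 0, 1.25 and 0 in control siRNA and at 0, 2.24 and 1.03 in HMT siRNA, 1 against 4 estimated reads. Krt8 was at 7.59, 7.53 and 5.19 in control siRNA and at 3.32, 8.95 and 2.06 in HMT siRNA, so the groups overlapped. Krt18 lay between 0 and 2.51 and Krt19 between 1.52 and 8.65 over the 6 libraries, again with overlap. Psca and Wt1 were at 0 in all 6, which allows a level of up to 5.19 in the shallowest control siRNA library. For Krt8 the ratio per depth of HMT siRNA to control siRNA was 0.769 (exact 95% interval 0.357 to 1.68, counting error only).

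In the same table the levels of Msln ordered as control siRNA (7.59 to 13.8), H3.3WT (35.2 to 49.6), HMT siRNA (122 to 150) and H3.3K36M (3766 to 3773), and no neighbours in this order overlapped. Krt7 and Psca were high in H3.3K36M and within 3 estimated reads per library of 0 elsewhere. Krt8 and Krt19 were highest in H3.3K36M. Among the other 3 groups the Krt19 ranges overlapped, and so did those of Krt8 except between H3.3WT (2.98 to 4.27) and control siRNA (5.19 to 7.59). For Upk3b the order was H3.3WT, H3.3K36M, control siRNA and HMT siRNA, with no overlap between neighbours. The 2 control groups, H3.3WT and control siRNA, differ in the transgene and in the siRNA treatment, and their own difference was not tested.

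Among the listed genes with a change of at least 2-fold after HMT siRNA, Pkp2 went from 78.4 to 200, Ehf from 92.8 to 13.3 and Krt80 from 63.8 to 147. Of 15 other mesothelial genes in the table, 5 passed the filter, with Cldn15, a claudin, from 6.77 to 13.4 and Podxl, a sialomucin, from 18 to 8.11. Of the Ly6 family 11 passed the filter and 4 were at least 2-fold higher, led by Slurp1, from 0.924 to 7.76, and Plaur, the urokinase receptor, from 188 to 474. Trp63 was higher after HMT siRNA, at 337 against 115, and Krt15, a basal keratin, lower, at 43.2 against 250. Among keratinocyte genes 8 passed the filter, 1 was at least 2-fold higher and 3 lower. These values are given beside those of H3.3K36M cells without a test between the 2 contrasts.

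**Figure D2:**
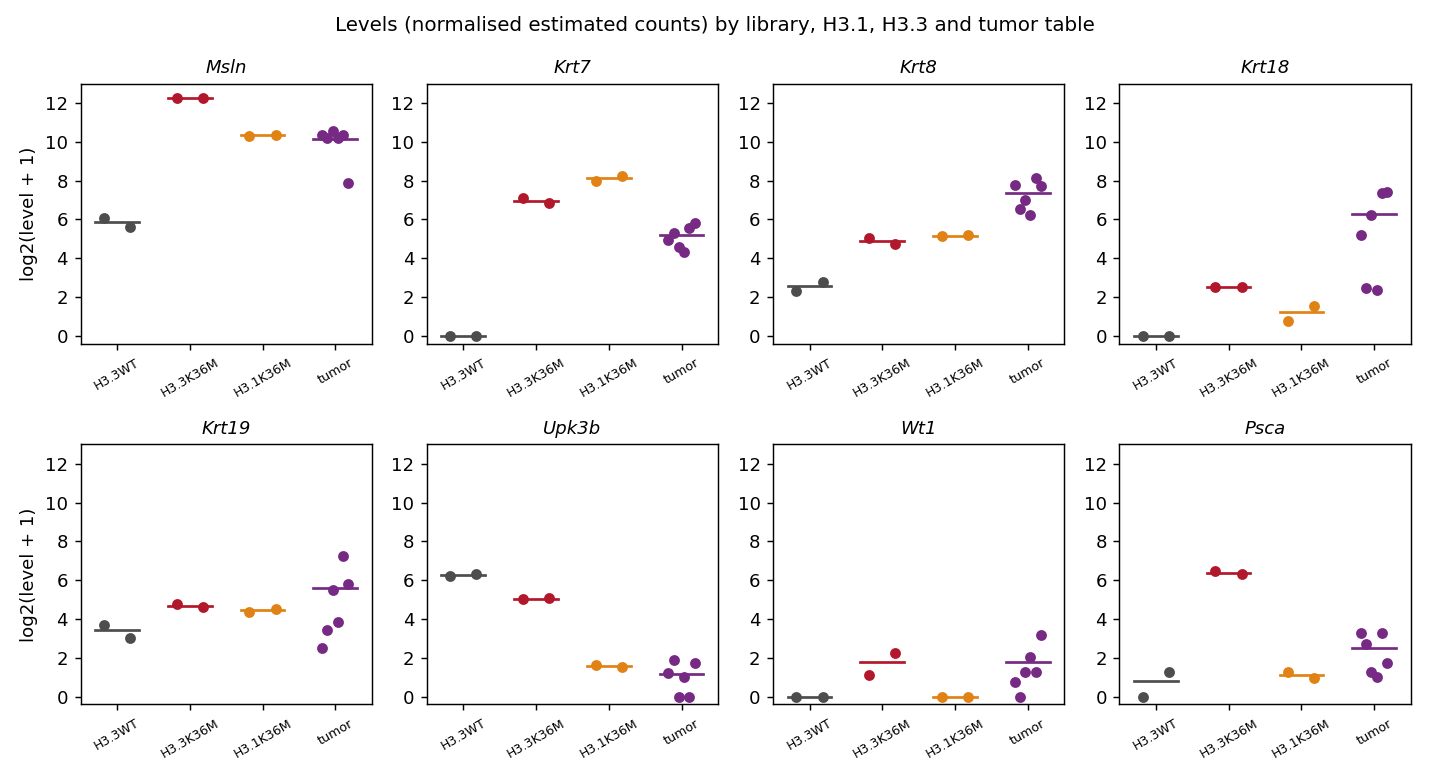
Each point is 1 library of the H3.1, H3.3 and tumor table, the y axis is log2(level + 1) of the normalised estimated count, and each bar is the group mean on the same scale. Psca and Upk3b lie lower in the H3.1K36M than in the H3.3K36M libraries, whereas Krt7 lies higher, at 255 and 296 against 136 and 113.

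H3.1K36M cells were compared with H3.3WT and with H3.3K36M cells in the table that holds all 3, and these comparisons share the H3.3WT or H3.3K36M libraries with each other or with the one above. Levels in this table are on another scale, so H3.3K36M cells are at 4964 and 4980 for Msln here. Of 13404 genes tested against H3.3WT, 12.6% were called higher and 12.2% lower. Msln, Krt7, Krt8 and Krt19 rose in H3.1K36M cells, Upk3b fell, Psca was not called, and Krt18 and Wt1 were under the filter.

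Msln was at 1272 and 1318 in H3.1K36M against 66.8 and 47.6 in H3.3WT libraries, with no overlap. The log2 fold change was 4.5 ± 0.14 (adjusted p = 8.54e-08, limma). Krt7 was at 255 and 296 against 0 and 0, at least 63.6-fold higher (adjusted p = 1.51e-13, limma). Both genes were thus high in both mutant lines. No line carried wild-type H3.1, so the K36M change, the H3.1 variant and the line cannot be told apart in this comparison.

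Krt8 was at 34.2 and 35.5 in H3.1K36M against 4.01 and 5.78 in H3.3WT libraries, a log2 fold change of 2.62 ± 0.31 (adjusted p = 1.92e-06, limma). Krt19 was at 19.5 and 22 against 12 and 7.22, a change of 1.07 ± 0.33 (adjusted p = 0.00748, limma). The Krt19 call was lost without H3.1K36M replicate 2 (0.99, adjusted p = 0.0522), and the change was under 2-fold without H3.3WT replicate 2 (0.74), under quantile normalisation (0.87) and with a pseudocount of 10 (0.66). Krt18 was at 0.698 and 1.92, which is 3 estimated reads against 0. Krt8, the type II chain, thus rose in both mutant lines, and Krt18, a type I partner, was within the limit of a count of 0 here.

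Upk3b was at 2.09 and 1.92 in H3.1K36M against 72.1 and 79.8 in H3.3WT libraries. Its 5 and 109 estimated reads gave a ratio per depth, H3.3WT over H3.1K36M, of 37.5 (exact 95% interval 15.6 to 118), and the log2 fold change was -4.68 ± 0.29 (adjusted p = 9.48e-10, limma). Psca was at 1.4 and 0.958 against 0 and 1.44, so the groups overlapped (log2 0.47 ± 0.52, adjusted p = 0.414, limma). Its 3 and 1 estimated reads gave a ratio of 1.75 with an exact 95% interval of 0.14 to 91.7, which leaves a wide range at this depth. Wt1 was at 0 in both H3.1K36M and both H3.3WT libraries.

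The direct comparison of the 2 mutant lines tests where H3.1K36M and H3.3K36M differ. Of 13404 genes, 2.8% were called higher in H3.1K36M and 10.3% lower. Of the 6 genes that passed the filter, Krt7 was called higher and Msln, Upk3b and Psca lower. Psca passed it only through the H3.3K36M libraries, so that count is no measure of the set. Msln fell by 1.94 ± 0.14 on the log2 scale (adjusted p = 1.86e-05, limma), with 1295 ± 32.4 against 4972 ± 11.2 (SD, n = 2 each), 3.84-fold lower. Krt7, at 255 and 296 against 136 and 113, was higher by 1.14 ± 0.24 (adjusted p = 0.000715, limma).

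Psca showed the widest gap of these genes between the mutant lines, with 1.4 and 0.958 in H3.1K36M against 87.3 and 77.8 in H3.3K36M libraries. Its 3 and 233 estimated reads gave a ratio per depth, H3.3K36M over H3.1K36M, of 69.1 (exact 95% interval 23.4 to 337; log2 -5.27 ± 0.52, adjusted p = 4.61e-07, limma). Upk3b was at 2.09 and 1.92 against 31.2 and 33.2, a log2 fold change of -3.47 ± 0.29 (adjusted p = 7.62e-08, limma). Msln and Krt7 were thus high in both lines against H3.3WT cells. Even so, Msln, Krt7, Psca and Upk3b each differed between the 2 lines beyond the spread of their libraries.

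Krt8, at 34.2 and 35.5 against 31.8 and 25.6, differed by 0.28 ± 0.31 (adjusted p = 0.447, limma), and by 0.87 (adjusted p = 0.0185) under quantile normalisation. Krt19, at 19.5 and 22 against 26 and 23.7, differed by -0.25 ± 0.33 (adjusted p = 0.515, limma). Krt18, at 0.698 and 1.92 against 4.62 and 4.75, was under the filter, and its 3 and 13 estimated reads gave a ratio, H3.3K36M over H3.1K36M, of 3.85 (exact 95% interval 1.06 to 21.1, counting error only). Wt1 was at 0 and 0 against 1.16 and 3.8. Each histone is represented by 1 line, so the histone variant and the line cannot be told apart.

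Of 10 other mesothelial genes tested between the mutant lines, none was called higher in H3.1K36M and 5 were called lower, and 1 and 3 under quantile normalisation. Of the 5, Gpm6a and Bnc1 passed the filter only through the H3.3K36M libraries, so the count does not describe the list as a whole. Bnc1 was at 0 in both H3.1K36M libraries and at 30.3 ± 10.9 (SD, n = 2) in H3.3K36M, and Rspo1 was at 9.94 against 160 (log2 -3.89, adjusted p = 2.22e-08, limma). The sum of 5 mesothelial markers was 10.5 to 11.5 in H3.1K36M, 56.1 to 70.2 in H3.3K36M and 22.7 to 30.3 in H3.3WT libraries. Against H3.3WT, 10 of these genes were tested, with Mslnl higher (log2 3.97) and Podxl lower (-4.27).

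Of 9 epithelial junction genes tested between the mutant lines, 1 was higher and 7 lower in H3.1K36M (1 and 3 under quantile normalisation), 3 of the 7 having passed the filter only through the H3.3K36M libraries. Pkp2 was the higher one, at 1300 against 106 (log2 3.62, adjusted p = 1.52e-09, limma), and Jup, plakoglobin, was at 118 against 843 (-2.83, adjusted p = 5.67e-13, limma). Cdh1 was among the lower ones, at 202 against 764 (-1.92, adjusted p = 9.52e-11, limma). Against H3.3WT, 5 of 9 were higher and 3 lower, with Pkp2 at 7.55 and Ehf at -8.66. Cdh1 was not called there, at 202 against 190 (0.08, adjusted p = 0.381, limma). The median of the list was 1.45, or 0.08 with Esrp1 set to its bound. Of 8 keratinocyte genes, 1 was higher and 5 lower against H3.3WT, including Trp63 (-6.76) and the p63 target Perp (-5.59). Krt80 was at 1130 in H3.1K36M against 143 in H3.3WT (2.99), and Krt16 was lower (-3.82). Among 12 genes of the Ly6 family tested against H3.3WT, 2 were higher and 4 lower, with Lypd1 at -6.51, Slurp1 at -5.73 and Plaur at 2.12. In the comparison with H3.3WT, Ehf, Krt16 and Lypd1 passed the filter only through the H3.3WT libraries.

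**Figure D3:**
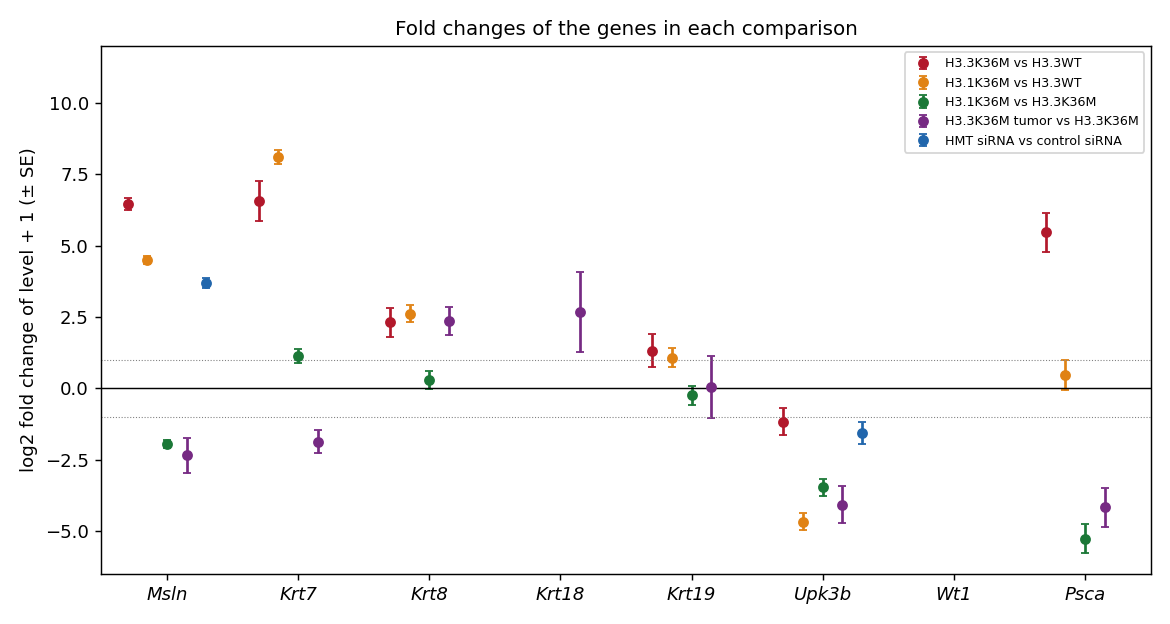
Points are log2 fold changes of level + 1 and bars are standard errors, 1 color per comparison; dotted lines mark 2-fold, and genes under the filter on low values have no point, so Wt1 has none. The HMT siRNA points are a description without a test, and Msln runs from 6.46 in H3.3K36M against H3.3WT cells to -2.35 in tumors against H3.3K36M cells.

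The last comparison sets the 6 H3.3K36M tumors against the 2 libraries of the cells they were grown from. Both the graft and the host are mouse, so reads of host tissue are counted with those of the injected cells, and in bulk tissue fewer cells of a type and less RNA per cell cannot be told apart. Of 14842 genes tested, 26.5% were called higher in tumors and 20.7% lower; after quantile normalisation the share of higher among all called genes went from 56.2% to 43.1%. Of the 7 genes that passed the filter, Krt8 rose, Msln, Krt7, Upk3b and Psca fell, and Krt18 and Krt19 were not called. Upk3b and Psca passed it only through the cell libraries and Krt18 only through the tumors, so that count is no measure of the set. Wt1 was not tested.

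Msln was at 1305, 1192, 1486, 1179, 1329 and 234 in tumors 1 to 6 and at 4964 and 4980 in the cells. All 6 tumors lay below both cell libraries, and tumor 6 lay far below the other 5. The means were 1121 ± 449 (SD, n = 6) and 4972 ± 11.2 (SD, n = 2), a log2 fold change of -2.35 ± 0.62 (adjusted p = 0.00666, limma), and without tumor 6 it was the change nearest to 0 of those that leave out 1 library, at -1.94. Every tumor still lay above the 47.6 to 66.8 of the H3.3WT libraries in the same table, a gap that was not tested.

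Krt7 was at 29.5, 38, 23.1, 19.2, 46.2 and 55.1 in the tumors and at 136 and 113 in the cells. All 6 tumors were lower than both cell libraries (log2 -1.88 ± 0.4, adjusted p = 0.002, limma). Psca was at 8.72, 5.42, 1.36, 1.01, 8.66 and 2.29 in the tumors against 87.3 and 77.8, and its 29 and 233 estimated reads gave a ratio per depth, cells over tumors, of 17 (exact 95% interval 11.5 to 25.9; log2 -4.18 ± 0.69, adjusted p = 0.000462, limma).

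Upk3b was at 1.34, 2.71, 0, 1.01, 0 and 2.29 in the tumors against 31.2 and 33.2 in the cells, with no overlap. The log2 fold change was -4.08 ± 0.65 (adjusted p = 0.000368, limma), and 8 against 89 estimated reads gave a ratio per depth, cells over tumors, of 23.5 (exact 95% interval 11.4 to 56.2). Wt1 was at 0.67, 0, 1.36, 3.04, 1.44 and 8.03 in the tumors and at 1.16 and 3.8 in the cells, 13 and 6 estimated reads. Msln, Krt7, Upk3b and Psca were thus lower in all tumors than in the cells, and Wt1 stayed near its limit.

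Krt8 was at 215, 92.2, 126, 73.9, 277 and 213 in the tumors against 31.8 and 25.6 in the cells. All 6 tumors were higher than both cell libraries, with a log2 fold change of 2.35 ± 0.49 (adjusted p = 0.00179, limma). Krt18 was at 36.2, 4.52, 73.4, 4.05, 165 and 172 against 4.62 and 4.75: tumors 2 and 4 were just below the cells and the other 4 above them. The change of 2.67 ± 1.41 did not pass the test (adjusted p = 0.113, limma), and it passed without tumor 4 (3.23, adjusted p = 0.0392). Krt19 was at 4.69, 9.95, 43.5, 13.2, 153 and 55.1 against 26 and 23.7. For Krt19 the tumors lay on both sides of the cells, with 3 below and 3 above (0.03 ± 1.09, adjusted p = 0.981, limma).

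**Figure D4:**
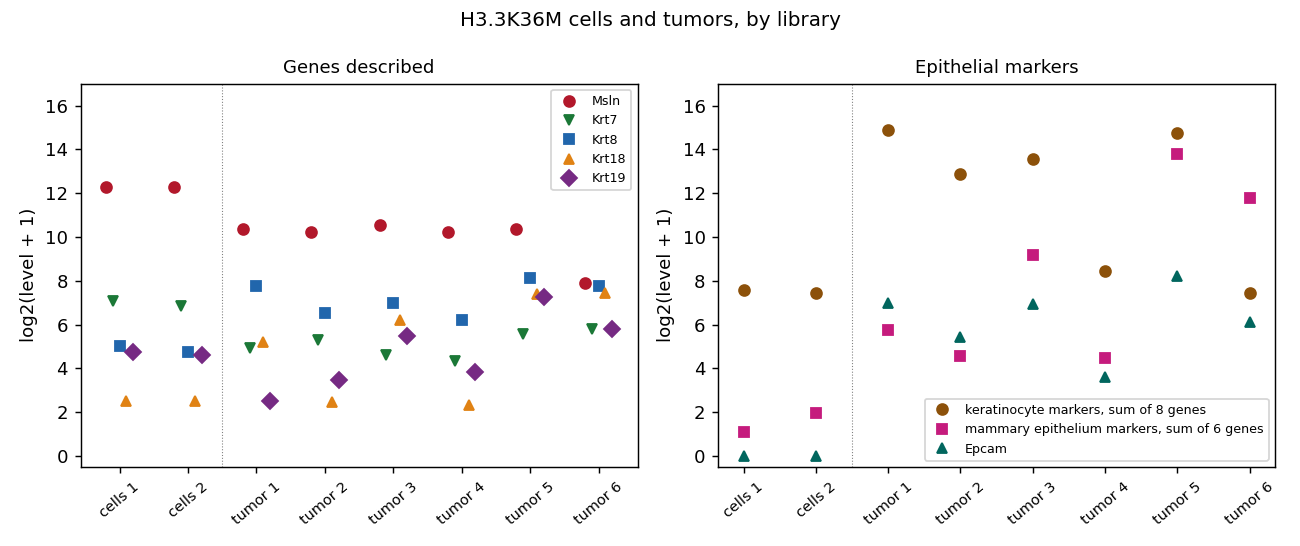
The left panel plots log2(level + 1) of 5 of the genes in the 2 H3.3K36M cell libraries and the 6 tumors, and the right panel the summed level of keratinocyte and mammary markers and the level of Epcam in the same libraries. Msln is lowest in tumor 6, at 234, and the keratinocyte sum spans 171 to 30603 over the tumors.

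Markers of stratified, mammary and other epithelium differed widely over the same tumors. The sum of 8 keratinocyte markers was 30603, 7510, 12046, 350, 27529 and 171 in tumors 1 to 6 and 193 and 175 in the cells. The sum of 6 mammary epithelium markers was 52.3, 22.6, 577, 21.3, 14226 and 3493 in the tumors and 1.16 and 2.85 in the cells, where Csn2, Csn1s1, Wap and Lalba were at 0. Epcam, a surface protein of simple epithelium, was at 125, 41.6, 122, 11.1, 293 and 67.7 in the tumors and at 0 in the cells. None of the markers in these lists was at 0 in every tumor.

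Tumor 4 held the lowest Epcam, Krt8, Krt18 and Krt7 and the lowest mammary sum of the 6, and tumor 5 the highest Krt8, Krt19 and Epcam and the highest mammary sum. In tumor 4 Krt8 was at 73.9, still above both cell libraries, while Krt18, at 4.05, was below them. Without tumors 5 and 6, which had the highest mammary sums, Krt19 changed by -0.88. The part of host epithelium in the levels of Krt8, Krt18 and Krt19 was not tested. Macrophage markers summed to 96672 to 138312 in tumors and 510 to 514 in the cells, endothelial markers to 7774 to 27673 and 223 to 239, skeletal muscle markers to 719 to 20312 and 382 to 406, and mesenchymal markers to 144861 to 201286 and 585951 to 633224. The mesenchymal sum was thus lower in every tumor, as were Msln, Krt7, Upk3b and Psca.

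Of 27 epithelial junction genes tested in tumors against cells, 16 rose and 2 fell, 18 and 3 without tumor 6, and 15 and 3 of 25 without tumors 5 and 6. Under quantile normalisation 8 rose and 2 fell. Of the 16 that rose, 14 passed the filter only through the tumors, as did 6 of 6 other keratins and 4 of 8 keratinocyte genes given next, so these counts do not describe the lists as a whole. St14, an epithelial membrane protease also known as matriptase, went from 0.764 to 191 ± 66.3 (SD, n = 6; log2 6.7, adjusted p = 3.87e-07, limma), and Dsc2, a desmosomal cadherin, from 0.578 to 85.2 ± 80 (5.48, adjusted p = 0.000124, limma). The 2 that fell were Cdh1, from 764 to 225 ± 98.5 (-1.9, adjusted p = 0.00385, limma), and Ocln, from 26.2 to 4.48 (-2.34). Ocln passed the filter only through the cell libraries. Of 17 keratinocyte genes 8 rose and none fell, 10 without tumor 6, and 4 with 1 lower under quantile normalisation. Krt5 went from 0.867 to 4570 ± 4350 (SD, n = 6; adjusted p = 0.00538, limma), and Lgals7, a keratinocyte galectin, from 33.5 to 4470 (log2 6.83). Of 10 mammary epithelium genes tested, which include Krt5 and Krt14, 4 rose and none fell, and 1 rose under quantile normalisation. Of these 4, 3 passed the filter only through the tumors, so this count does not describe the list either. The uroplakin Upk1a rose from 14.9 to 46.2 (1.55), a call lost under quantile normalisation.

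Of 7 other keratins tested, 6 rose and 1 fell in tumors, 4 and 1 without tumors 5 and 6, and 2 and 1 under quantile normalisation. Krt6a and Krt17, keratins of activated epidermis, were at 0 in the cells and at 1500 ± 1940 and 1160 ± 1460 (SD, n = 6) in the tumors, and Krt80, the neighbour of Krt7, was the 1 that fell, from 822 to 131 (log2 -2.67, adjusted p = 6.83e-06, limma). Of 11 other mesothelial genes, 4 rose and 3 fell, but 3 rose and 5 fell under quantile normalisation. Here 1 of the 4 passed the filter only through the tumors and 2 of the 3 only through the cells. Podxl, which vessels also express, went from 31.9 to 1210 ± 210 (5.18, adjusted p = 1.08e-08, limma), Aldh1a2 from 0 to 16.4 ± 9.28 and Rspo1 from 160 to 23.1 ± 25.9 (-3.26, adjusted p = 0.00458, limma). Of 16 genes of the Ly6 family tested, 6 rose and 2 fell, but 4 rose and 5 fell under quantile normalisation. Among them 4 of the 6 passed the filter only through the tumors and 1 of the 2 only through the cells. These counts do not describe the lists as a whole. The direction was opposite to that of Psca for Gpihbp1, a capillary lipase anchor, from 1.05 to 1190, and for Ly6e, from 324 to 36200.

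The genes next to each member were then listed, with up to 2 protein-coding neighbours on each side in the order of GRCm38.p6. In H3.3K36M against H3.3WT cells, 21 of 28 neighbours were tested, 4 rose and 6 fell (12.2% and 8.17% over all genes tested). In H3.1K36M against H3.3WT cells 23 were tested, 6 rose and 5 fell (12.6% and 12.2% over all genes). In tumors against cells 6 of 23 rose and 7 fell (26.5% and 20.7%). Between the mutant lines 2 of 23 were higher in H3.1K36M and 3 lower (2.8% and 10.3%). The filter on low values shapes these counts. In the first comparison Mslnl and 2310043J07Rik passed it only through the H3.3K36M libraries, and Krt78 would not have passed it without the H3.3WT libraries. Nothing is read from them.

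Msln has the mesothelin-like gene Mslnl on one side and Narfl, an iron-sulfur assembly gene, on the other. In H3.3K36M against H3.3WT cells Mslnl rose by 3.57, as given above, and Narfl was at 562 against 548 (log2 0.04 ± 0.08, adjusted p = 0.7, limma). One gene further, Haghl fell from 442 to 180 (-1.29, adjusted p = 3.85e-11, limma) and Rpusd1 went from 462 to 682, a change of 0.56 that is under 2-fold. Mslnl rose in H3.1K36M against H3.3WT cells too (3.97 ± 0.46, adjusted p = 1.48e-06, limma) and fell in tumors (-1.38 ± 0.38, adjusted p = 0.00797, limma), in the direction of Msln. In the tumor comparison Mslnl passed the filter only through the cell libraries. Between the mutant lines the 2 genes did not go together: Mslnl was at 0.15 ± 0.46 (adjusted p = 0.791, limma) and Msln at -1.94.

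Krt80 lies next to Krt7, and the 2 genes had the same direction in all 4 tested comparisons: Krt80 changed by 2.56, 2.99, 0.46 and -2.67 and Krt7 by 6.57, 8.11, 1.14 and -1.88, in the order of H3.3K36M and H3.1K36M against H3.3WT, H3.1K36M against H3.3K36M, and tumors against cells. Some of these comparisons share libraries, so the shared direction is no independent repeat. Krt8 and Krt18 are adjacent, with Krt78 beyond Krt8 and Eif4b beyond Krt18. Krt78 fell in H3.3K36M cells from 12.9 to 1.96 (-2.23 ± 0.53, adjusted p = 0.00112, limma), the opposite direction to Krt8, and Eif4b, a translation factor, changed by 0.26. Krt78 would not have passed the filter without the H3.3WT libraries.

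Krt19 is flanked by Krt15, which fell from 86.5 to 31.1 in H3.3K36M cells (-1.44 ± 0.19, adjusted p = 1.51e-06, limma), and Krt9, which was under the filter. Psca is flanked by Jrk (-0.03 ± 0.09, adjusted p = 0.766, limma) and 4930572J05Rik (0.07 ± 0.19, adjusted p = 0.755, limma). Slurp1, a Ly6-family gene 1 further on, fell in H3.3K36M cells from 68.4 to 30.8 (-1.13, adjusted p = 0.0331, limma) and in H3.1K36M cells from 92.3 to 1.05 (-5.73, adjusted p = 8.31e-09, limma). Upk3b is flanked by Dtx2 (-0.06 ± 0.08, adjusted p = 0.543, limma) and 2310043J07Rik, which rose from 2.56 to 25.7 (2.92, adjusted p = 0.00111, limma). That gene passed the filter only through the H3.3K36M libraries. Wt1 is flanked by Eif3m, at 3724 against 3535 (0.07 ± 0.05, adjusted p = 0.173, limma).

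**Figure D5:**
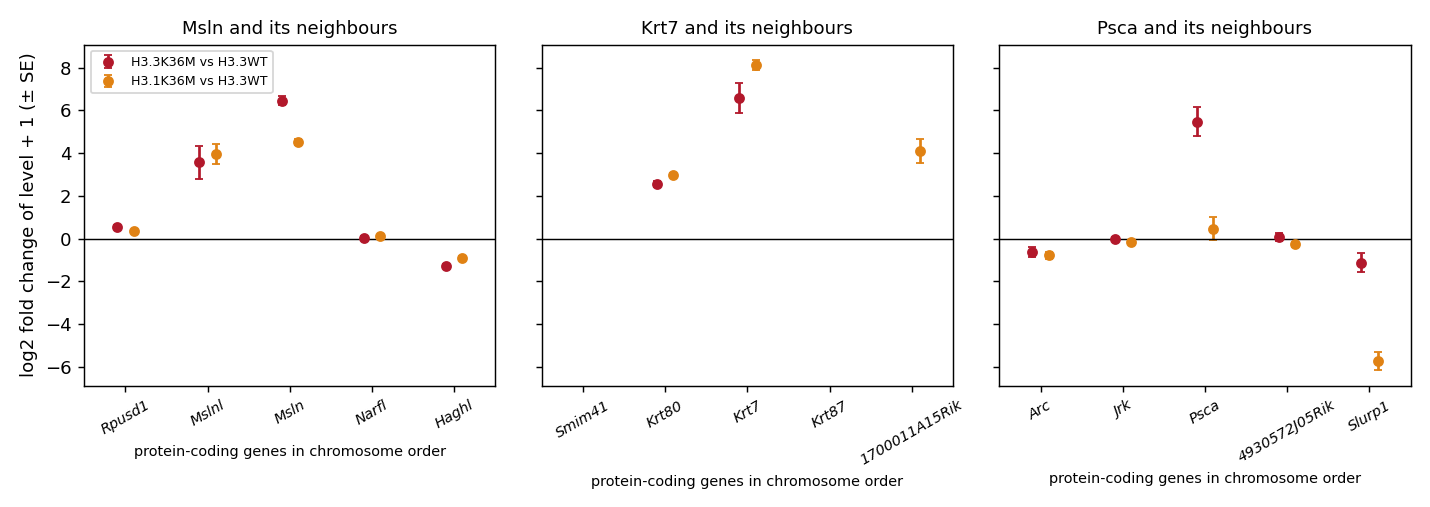
Points are log2 fold changes of level + 1 with standard errors for Msln, Krt7 and Psca and up to 2 protein-coding neighbours on each side, in chromosome order and not to distance; genes under the filter on low values have no point. In these 2 comparisons with H3.3WT cells Mslnl and Krt80 lie on the same side of 0 as their neighbours Msln and Krt7, while Jrk, next to Psca, lies at -0.03 in H3.3K36M against H3.3WT cells.

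As a description, members were correlated with each other over the libraries of a table on the log2(level + 1) scale. Over the 10 libraries of the H3.3 and siRNA table Pearson's r was 0.96 for Krt7 with Psca, 0.89 for Msln with Krt7, 0.87 for Msln with Psca, 0.86 for Krt7 with Krt8 and 0.10 for Msln with Upk3b. Over the 12 libraries of the other table r was 0.88 for Krt8 with Krt18, 0.82 for Msln with Krt7, 0.43 for Krt7 with Psca and -0.86 for Krt8 with Upk3b. These points fall into groups of replicates and share their libraries and scaling, so r mostly restates the differences between groups, and no p is given.

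The gene most like each member by the same measure was Tpm3 for Msln (0.996), Hspe1 for Krt7 (0.992), Igfbp2 for Krt8 (0.943), Mfap4 for Krt19, with Apbb1 next at 0.947,, Mobkl2c for Upk3b (0.984) and Vmn2r98 for Psca (0.999), over 10 libraries and 13186 genes. Over the 12 libraries and 15026 genes of the other table it was Lass4 for Msln (0.972), Apbb1ip for Krt7 (0.988), Ogfrl1 for Krt8 (0.979), Fsd2 for Krt18 (0.957), Atp6v1b1 for Krt19 (0.820), Clstn1 for Upk3b (0.983) and Ube2z for Psca (0.929). No member had the same nearest gene in both tables.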

How the data were processed

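RNA was extracted with Trizol and made into TruSeq libraries, per the labels' protocols. The submitters' processing notes name Bowtie 1.0.0, RSEM 1.2.12 and mm9. The deposited signal is an estimated count scaled by the authors to a common median per table, as the deposited files name it, and the 3 tables (26 columns) were scaled separately, so tests stay within a table. No whole reads were recovered: among values of 1 to 20 reads, 76.3 to 86.7% were whole within 0.01, so estimated reads printed here are rounded.

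Log2(level + 1) was fitted with limma 3.58.1 (R 4.3.3; trend and robust, two-sided), keeping genes with a level of at least 10 in as many libraries as the smaller group, by group, over the cultured libraries of a table or over tumors and their cells. The fits were tested on simulated data. Exact Clopper-Pearson intervals (95%) and a floor of 3 estimated reads cover counting error only. No library duplicated another: replicates differed by more than counting noise.

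The 8 genes and all lists were chosen with earlier results of these data known. Genes named beside them are at most 3 per list and comparison, by size of change among those called, plus the neighbours in chromosome order and, by correlation, the most alike. Outside this rule, Cdh1 was named in the comparisons of lines and of tumors, and Ocln in tumors. Podxl and Gata6 were named outside it in H3.3K36M against H3.3WT cells, and other genes only for how they passed the filter. Alternatives were the pseudocount, the filter, quantile normalisation, the variance prior, the libraries fitted, each replicate left out and a replicate block; leaving out tumors 5 and 6 was chosen after seeing the data.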

Additional observations from a re-analysis of the deposited data

Results flagged for a closer look

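Msln in tumor 6 was the lowest of the 6 tumors at a level of 234, with the next at 1179, a gap large for the range of the group. Krt19 in tumor 5 was the highest at a level of 153, with the next at 55.1. Dixon's criterion flags about 1 group in 20 by chance. Tumor 6 had a mammary marker sum of 3493 and a keratinocyte sum of 171, and tumor 5 had sums of 14226 and 27529. The part of these tissues in either value was not tested.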

How the results depend on the processing

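Msln, Krt7 and Krt8 kept their call and direction under every alternative in each comparison where they were called, and so did Psca in H3.3K36M against H3.3WT, in H3.1K36M against H3.3K36M and in tumors. Psca in H3.1K36M against H3.3WT changed sign under quantile normalisation (-0.53) and without H3.3WT replicate 1 (-0.17), where leaving out 1 library gave -0.17 to 1.12. Krt19 in H3.1K36M against H3.3K36M was at 0.39 under quantile normalisation. Krt19 in tumors, near 0, was at -0.01 with a pseudocount of 0.1, at -1.2 under quantile normalisation, at -0.88 without tumors 5 and 6, and between -0.48 (without tumor 5) and 0.47 without 1 library; it was -0.03 without H3.3K36M replicate 2, -0.12 without tumor 3 and -0.19 without tumor 6. Upk3b after HMT siRNA was the gene lost where 1 in place of 2 was past 2-fold, with a pseudocount of 10 and with the 6 siRNA libraries alone. With a pseudocount of 10, Krt19 (0.76) and Upk3b (-0.94) in H3.3K36M against H3.3WT were under 2-fold. The causes were not tested.

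Replicate numbers in the labels are only numbers, and the deviations of same-numbered libraries correlated at -0.066 to 0.079, so they do not pair the libraries. With the replicate block, Krt19 in tumors against cells, with 2 libraries each, was at -1.71 (adjusted p = 0.002), 1 gene was past 2-fold after HMT siRNA, and the counts of called genes were 2645 against 2691, 3114 against 3320, 1710 against 1762 and 7326 against 6997.

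Quantile normalisation changed the share of higher among called genes from 60 to 48.3% in H3.3K36M against H3.3WT and from 21.3 to 44.5% in H3.1K36M against H3.3K36M, and moved the median of all genes in tumors from 0.14 to -0.12. With 2 libraries a group and 0 to 20 estimated reads, Krt18, Wt1 and the low keratins are limited by depth.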
